A study of Homo sapiens with 4 samples.

Results

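The nectins and their receptors are a small family of cell-surface proteins of the immunoglobulin superfamily. The 8 genes described here were taken by symbol from the 58735 genes of the table: the nectins NECTIN1, NECTIN2, NECTIN3 and NECTIN4, the related ligand PVR, and the receptors TIGIT, CD96 and CD226. The family was selected on the counts of NECTIN4, which was nearly absent in the control libraries and expressed in the shGOLM1 libraries, so the values of NECTIN4 in that contrast are a description and carry no test. The other 7 genes came in by family membership. RNA-seq counts were available for 4 libraries of SUP-M2, an established human line of anaplastic large cell lymphoma. The shGOLM1 group held 2 libraries, titled with a short hairpin RNA against GOLM1, which encodes a protein anchored in Golgi membranes. The shscramble group held 2 libraries with a scrambled hairpin, and its genotype is given as control. The genotype label of the shGOLM1 samples reads GOLM1 knockout, whereas a hairpin lowers a transcript without removing the gene. The labels do not say whether the shGOLM1 libraries carried the same hairpin sequence, or whether replicates were separate cultures, so the spread behind each p-value is that of these libraries and may be only technical.

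Nectins are adhesion molecules that bind one another across neighbouring cells, and inside the cell they are tied to the actin cytoskeleton through afadin. NECTIN2 and PVR are also read by lymphocytes: CD226 is an activating receptor for both, TIGIT is an inhibitory receptor that competes for the same ligands, and CD96 binds PVR. Tumour cells that display these ligands can be recognised through CD226 or spared through TIGIT. NECTIN4 is in adults mainly an epithelial and placental protein and is the target of an antibody-drug conjugate used in urothelial cancer. T cells and NK cells normally carry the receptors, and a T lymphoma line can in principle carry both sides.

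Library totals ran from 27544171 to 30889185 counts in shGOLM1 and from 31608073 to 31972153 counts in shscramble. All CPM values, which set counts against the size of each library, use totals scaled by TMM, edgeR's trimmed mean normalization. A count of 0 allows up to 3 counts per library, which is 0.0864 to 0.132 CPM on this scale, and this limit covers counting error only. GOLM1 itself stood at 69.5 and 69.4 CPM in the shGOLM1 replicates, against 212 and 213 CPM in shscramble replicates 1 and 2, with no overlap between the groups. The shGOLM1 libraries stood apart from each other. Across the 14166 genes tested, log2 CPM correlated at 0.873 between the shGOLM1 libraries and at 0.989 between the shscramble libraries, a description across genes that are not independent replicates. The median gap between replicates was 0.95 on the log2 scale in shGOLM1 and 0.15 in shscramble. Mitochondrially encoded genes took 1.95% and 0.456% of counts in shGOLM1 replicates 1 and 2, against 2.38% and 2.24% in shscramble. Ribosomal protein genes took 6.57% and 14.7% in shGOLM1, against 8.77% and 7.44% in shscramble. The part of this gap between libraries in the results below was not tested, and values are therefore given for each library. TNFRSF8, which encodes CD30, was at 538 and 88.3 CPM in shGOLM1 and at 634 and 614 CPM in shscramble. ALK was at 327 and 169.8 CPM against 340 and 316 CPM, so both defining markers of the lymphoma were present in every library. Of the other lymphoma markers listed, NPM1, STAT3, BATF3 and IL2RA were also expressed in every library. GZMB was at 149 and 20.4 CPM in shGOLM1 against 118 and 86.2 CPM in shscramble. PRF1 was low in shscramble, at 2.91 and 2.70 CPM, against 620 and 145 CPM in shGOLM1.

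NECTIN4 (ENSG00000143217, chromosome 1, 161070995 to 161089599 on GRCh38, minus strand) had 662 and 552 counts in shGOLM1 replicates 1 and 2, against 5 and 3 counts in shscramble replicates 1 and 2. On the CPM scale these were 19.1 and 24.2 in shGOLM1, against 0.153 and 0.0902 in shscramble. Both shGOLM1 libraries were high, both shscramble libraries lay close to the limit of detection, and the groups were far apart. Summed over each group there were 1214 counts in shGOLM1 and 8 in shscramble, a ratio of 174 after scaling, given as a description. The fitted log2 fold change was 7.43, and the authors' deposited table gives 7.45. The shGOLM1 libraries differed by 0.34 in log2 CPM and the shscramble libraries, at 5 and 3 counts, by 0.49. As NECTIN4 was selected on these values, the gaps are a description too. NECTIN4 passed the filter on low counts through the shGOLM1 libraries alone. In bulk RNA, more cells with the transcript and more transcript per cell cannot be told apart.

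A scan of the table for the same pattern, with thresholds set after the values were seen, found 3 of 19951 protein-coding genes with at most 5 counts in each shscramble library and at least 10 CPM in each shGOLM1 library. The other two were CA9, a carbonic anhydrase induced by hypoxia, and ARHGDIB. Both had 0 counts in shscramble. The 5 protein-coding genes whose log2 CPM over the 4 libraries lay nearest to NECTIN4 by Euclidean distance were TGM5, PLXNB3, ADAMTS2, LRRK2 and SH3KBP1, at distances from 1.86 to 2.32. TGM5, an epidermal transglutaminase, was at 6.45 and 18.8 CPM in shGOLM1 and at 0.0919 and 0.210 CPM in shscramble. PLXNB3, a semaphorin receptor, was at 5.99 and 27.6 CPM in shGOLM1 and at 0.0919 and 0.270 CPM in shscramble. Of the 5, SH3KBP1, an adaptor of receptor endocytosis, had 15.2 and 7.02 CPM in shGOLM1 and was the one with less in replicate 2 than in replicate 1. With each gene's mean removed first, 1 of the 5, LRRK2, stayed among the nearest.

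The genes on either side of NECTIN4 did not show its pattern. ARHGAP30, whose gene body lies 1025 bases away, was at 102 and 76.5 CPM in shGOLM1 and at 80.1 and 75.9 CPM in shscramble. USF1, a basic helix-loop-helix transcription factor gene 25018 bases away, was at 24.7 and 86.8 CPM in shGOLM1 against 35.8 and 31.9 CPM in shscramble. On the other side, KLHDC9 (8762 bases away) was at 0.662 and 1.18 CPM in shGOLM1 against 0.613 and 0.270 CPM in shscramble. PFDN2, a prefoldin subunit gene 10957 bases away, was at 23.1 and 149 CPM in shGOLM1 against 65.8 and 48.9 CPM in shscramble. For ARHGAP30, USF1 and PFDN2 the groups overlapped. NIT1, 28487 bases away, was at 26.4 and 63.7 CPM in shGOLM1 against 23.7 and 19.98 CPM in shscramble. For NIT1 and KLHDC9 the shGOLM1 libraries lay higher without overlap, as they did for 25.2% of all tested genes. TSTD1, 32005 bases away, was at 0.0864 and 0 CPM in shGOLM1 and at 0 in shscramble. None of the 5 neighbours that could be tested passed edgeR's quasi-likelihood test at an adjusted p under 0.05. As 0% of all tested genes passed, this does not set the neighbours apart. Their unadjusted p in that test ran from 0.107 to 0.551. The only annotated gene overlapping NECTIN4, the antisense gene AL591806.1, had 0 counts in every library.

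**Figure D1:**
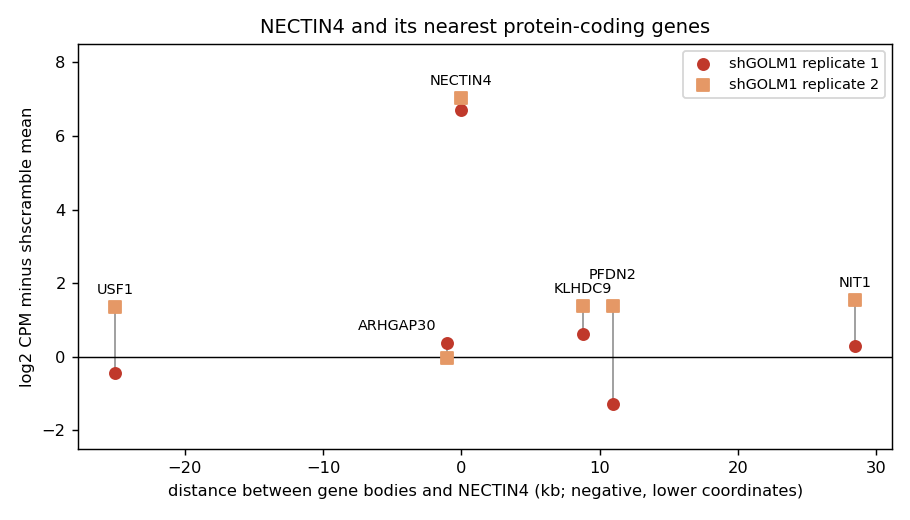
Log2 CPM of NECTIN4 and its nearest protein-coding genes in shGOLM1 replicate 1 (circles) and replicate 2 (squares), minus the mean log2 CPM of the shscramble libraries, against the distance between gene bodies in kb; TSTD1, with almost no counts, is left out. NECTIN4 lies at 6.70 and 7.05, while the neighbours lie between -1.29 and 1.55.

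The sequence before the RefSeq start of NECTIN4 is shown because NECTIN4 was nearly absent in shscramble, next to those of NECTIN3, which also lay higher in shGOLM1, and PVR, which was high in every library. The RefSeq starts of NECTIN4, NECTIN3 and PVR used here, and that of NECTIN2 below, lie inside the gene bodies that GENCODE gives. Sequences are RefSeq's on GRCh38.p14, available for 7 of the 8 members, read 5′ to 3′ on the strand of the gene, up to the next GENCODE exon of that gene. Capitals mark CG dinucleotides. NECTIN4 is chr1:161089600-161089808 (minus strand), NECTIN3 is chr3:111071566-111071742 (plus strand) and PVR is chr19:44643660-44643797 (plus strand).
NECTIN4: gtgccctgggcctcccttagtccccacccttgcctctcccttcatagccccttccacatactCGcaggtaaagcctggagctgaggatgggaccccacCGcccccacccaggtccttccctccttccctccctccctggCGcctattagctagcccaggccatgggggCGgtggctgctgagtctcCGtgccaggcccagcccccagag
NECTIN3: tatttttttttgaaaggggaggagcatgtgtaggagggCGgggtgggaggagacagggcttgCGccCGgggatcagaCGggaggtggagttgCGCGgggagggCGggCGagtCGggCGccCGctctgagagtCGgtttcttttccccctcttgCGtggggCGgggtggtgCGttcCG
PVR: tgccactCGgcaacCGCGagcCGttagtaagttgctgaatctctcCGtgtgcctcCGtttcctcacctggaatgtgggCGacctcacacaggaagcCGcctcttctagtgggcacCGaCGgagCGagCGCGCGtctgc
Over the full 250 bases before each RefSeq start, NECTIN4 held 6 CG dinucleotides at 65.2% G and C, against 27 at 69.2% in NECTIN3, 27 at 70.0% in PVR and 19 at 67.6% in NECTIN2. For these genes the full windows include GENCODE exon bases. The parts before the exon held 5 CG in 209 bases at NECTIN4 and 16 in 177 at NECTIN3. At PVR they held 14 in 138 bases and at NECTIN2 9 in 128. Across 35116 such windows of the genome the median was 11 CG, with quartiles of 3 and 23. NECTIN4 thus had fewer CG pairs than these 3 ligands, at a similar share of G and C. The windows of the receptors held as few, with 6 at CD96, 5 at TIGIT, and 5 and 3 at the starts listed for CD226, which was abundant in every library, so a low count was not particular to NECTIN4. The RefSeq starts of these receptors also lie inside the gene bodies that GENCODE gives. The windows of the 5 genes with the nearest pattern ranged from 1 CG at SH3KBP1 to 40 CG at ADAMTS2, so they did not share this feature. The GC box letters GGGCGG, searched on both strands, stood 2 times in the NECTIN4 window, 5 times in NECTIN3, 3 times in NECTIN2 and 0 times in PVR, and 42.6% of all windows hold them. The E-box letters CACCTG stood once each in NECTIN4 and PVR and are in 17.5% of windows. The AP-1 letters TGANTCA (in 6.57% of windows), the hypoxia element letters ACGTG (18.5%) and the cyclic AMP element TGACGTCA (1.65%) were not in the windows of these 4 genes. That says only that those letters are absent there. Other spellings of these elements were not searched, such as GCGTG, which stands in the printed NECTIN3 sequence. Overlap between these motifs was not removed.

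Of the 6 other members that could be tested, 0 passed edgeR's quasi-likelihood test at an adjusted p under 0.05, where 0% of all tested genes passed and the smallest adjusted p over all genes was 0.42. DESeq2 also passed 0 of the 6, against 3.33% of its genes. At an unadjusted p under 0.05 edgeR had 2 of the 6, NECTIN3 and CD96, where 11.8% of all genes had such a p. The shGOLM1 libraries lay above both shscramble libraries for 3 of the 6, NECTIN2, NECTIN3 and CD96, against 25.2% of all genes, and below both for 0 of the 6, against 26.5%. The median log2 fold change of the 6 was 0.72, against 0.05 over all tested genes. Each shGOLM1 library was also set alone against the shscramble pair in edgeR. Such a fit takes the spread of the shscramble pair for the single library too, and it compares libraries, not conditions. By it, 4 of the 6 members were higher and 0 lower in replicate 1, where 20.4% of all genes were higher and 24.1% lower. In replicate 2, 3 were higher and 3 lower, where 33.3% of all genes were higher and 34.1% lower. Across both fits, 2 of the 6 members were higher in each shGOLM1 library (9.62% of all genes), 0 were lower in each (13.9%), and 2 went in opposite directions (11.2%).

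**Figure D2:**
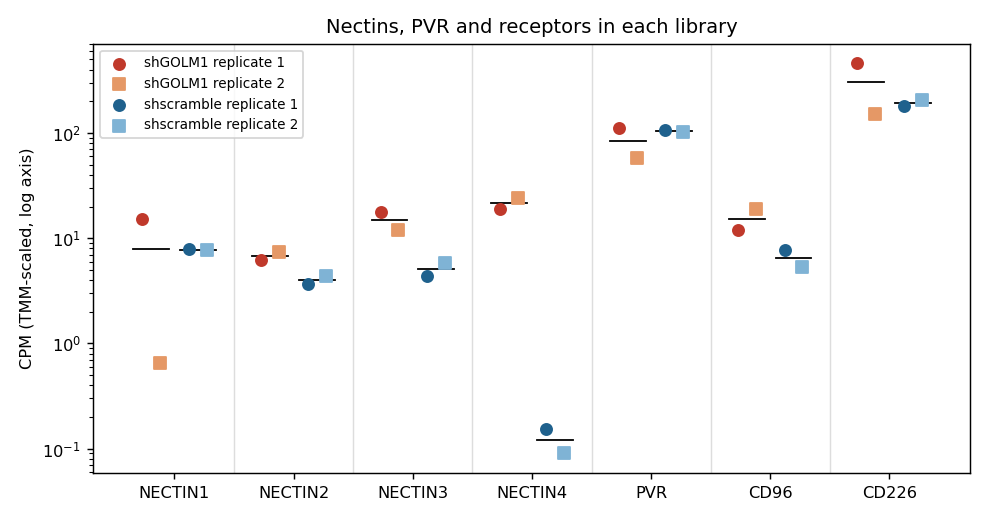
CPM (log axis) of 7 members in each library, with shGOLM1 replicates left of shscramble replicates in each column and black lines at the group means; TIGIT had 0 counts in every library and is not drawn. NECTIN4 is the gene whose groups are farthest apart, and NECTIN1 is the gene whose shGOLM1 libraries are farthest apart, at 15.3 and 0.658 CPM.

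Among the ligands, NECTIN3 had the largest fitted log2 fold change after NECTIN4. NECTIN3 (ENSG00000177707, chromosome 3, 111070071 to 111275563, plus strand), which binds NECTIN1, NECTIN2 and PVR in trans, had 613 and 275 counts in shGOLM1, against 144 and 193 counts in shscramble. These were 17.7 and 12.1 CPM in shGOLM1, against 4.41 and 5.80 CPM in shscramble, and both shGOLM1 libraries were higher. Its mean was 14.9 ± 3.96 CPM in shGOLM1 and 5.11 ± 0.982 CPM in shscramble (SD, n = 2 each). The log2 fold change was 1.54 (SE 0.43), which did not pass (adjusted p = 0.42 in edgeR and 0.186 in DESeq2). Taken alone, shGOLM1 replicate 1 had 1.77 (adjusted p = 2.91e-07 in edgeR) and replicate 2 had 1.19 (adjusted p = 0.000216 in edgeR). NECTIN3-AS1, an antisense gene that shares no exon base with NECTIN3, had 5 and 2 counts in shGOLM1 and 0 in shscramble.

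NECTIN2 (ENSG00000130202, chromosome 19, 44846175 to 44889228, plus strand), a ligand of CD226 and TIGIT, had 216 and 170 counts in shGOLM1, against 121 and 144 counts in shscramble. Its mean was 6.84 ± 0.874 CPM in shGOLM1 and 4.02 ± 0.439 CPM in shscramble (SD, n = 2 each). Both shGOLM1 libraries lay higher, by less than for NECTIN3. The log2 fold change was 0.77 (SE 0.43, adjusted p = 0.506 in edgeR). In the libraries taken alone it was 0.62 in replicate 1 (adjusted p = 0.0524 in edgeR) and 0.84 in replicate 2 (adjusted p = 0.00796 in edgeR). NECTIN2 shares 128 exon bases with the antisense gene AC011481.2, which had at most 3 counts in a library.

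NECTIN1 (ENSG00000110400, chromosome 11, 119623408 to 119729084, minus strand), an adhesion partner of NECTIN3 and NECTIN4 and an entry receptor of herpes simplex virus, split the shGOLM1 libraries. It had 531 and 15 counts in shGOLM1 replicates 1 and 2, against 258 and 256 counts in shscramble. These were 15.3 and 0.658 CPM in shGOLM1, against 7.90 and 7.69 CPM in shscramble. The shGOLM1 libraries lay on both sides of the shscramble libraries, which hardly differed. The replicates of shGOLM1 differed 23.2-fold, so their mean of 7.98 ± 10.3 CPM in shGOLM1, against 7.80 ± 0.149 CPM in shscramble (SD, n = 2 each), describes neither library. The log2 fold change over all 4 libraries was 0.04 (SE 1.34, adjusted p = 0.993 in edgeR). Taken alone, replicate 1 had 0.96 (adjusted p = 0.000191 in edgeR) and replicate 2 had -3.61 (adjusted p = 1.41e-07 in edgeR).

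PVR (ENSG00000073008, chromosome 19, 44643798 to 44663583, plus strand), the ligand shared by CD226, TIGIT and CD96, was the most abundant ligand. It had 3862 and 1310 counts in shGOLM1, against 3453 and 3406 counts in shscramble. These were 111 and 57.5 CPM in shGOLM1, against 106 and 102 CPM in shscramble. Replicate 1 of shGOLM1 was level with shscramble and replicate 2 was lower, so the groups overlapped. The log2 fold change was -0.30 (SE 0.41, adjusted p = 0.769 in edgeR). Taken alone, replicate 1 had 0.08 (adjusted p = 0.592 in edgeR) and replicate 2 had -0.90 (adjusted p = 3.86e-06 in edgeR). PVR shares 121 exon bases on its own strand with CEACAM19, which had 12 and 20 counts in shGOLM1 and 3 and 3 in shscramble, far fewer than PVR.

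**Figure D3:**
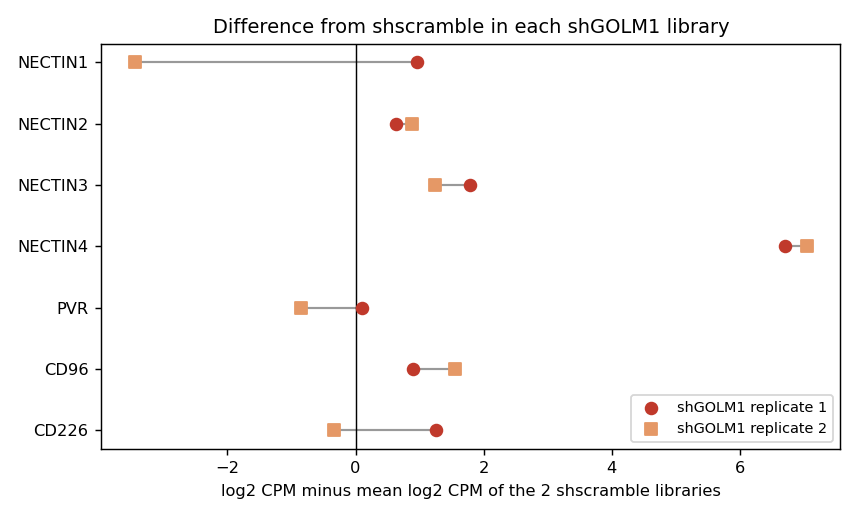
Log2 CPM of 7 members in shGOLM1 replicate 1 (circles) and replicate 2 (squares), minus the mean log2 CPM of the shscramble libraries. NECTIN2, NECTIN3, NECTIN4 and CD96 lie above 0 in both libraries, while NECTIN1, PVR and CD226 lie on both sides of 0.

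Levels of different genes were compared per length, with the authors' FPKM (fragments scaled to gene length and library total). In shGOLM1 PVR was highest of the ligands at 30.8 and 15.9 FPKM, NECTIN4 came next at 5.30 and 6.72 FPKM, and NECTIN3 (2.78 and 1.90 FPKM), NECTIN2 (1.62 and 1.94 FPKM) and NECTIN1 (1.93 and 0.0831 FPKM) followed. In shscramble PVR was again highest at 29.8 and 28.8 FPKM, NECTIN1 (1.02 and 0.989 FPKM), NECTIN2 (0.980 and 1.14 FPKM) and NECTIN3 (0.707 and 0.929 FPKM) lay close together, and NECTIN4 was last at 0.0433 and 0.0255 FPKM. The order of NECTIN2, NECTIN3 and NECTIN1 was not the same in the shGOLM1 libraries. The FPKM of NECTIN4 was above that of 71.4% and 76.4% of protein-coding genes in shGOLM1, and above that of 43.0% and 40.9% of them in shscramble. Of the summed FPKM of the 5 ligands, NECTIN4 made up 12.5% and 25.4% in shGOLM1, against 0.133% and 0.0799% in shscramble. PVR made up 72.6% and 59.9% in shGOLM1, against 91.6% and 90.3% in shscramble. The sum itself was 42.4 and 26.5 FPKM in shGOLM1 and 32.5 and 31.9 FPKM in shscramble, so the shGOLM1 libraries lay on both sides of shscramble. The sum of nectins without PVR was 11.6 and 10.6 FPKM in shGOLM1 and 2.75 and 3.09 FPKM in shscramble. That sum includes NECTIN4, on which the family was selected, so it is a description. Without NECTIN4 the nectins summed to 6.33 and 3.92 FPKM in shGOLM1 and 2.70 and 3.06 FPKM in shscramble.

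**Figure D4:**
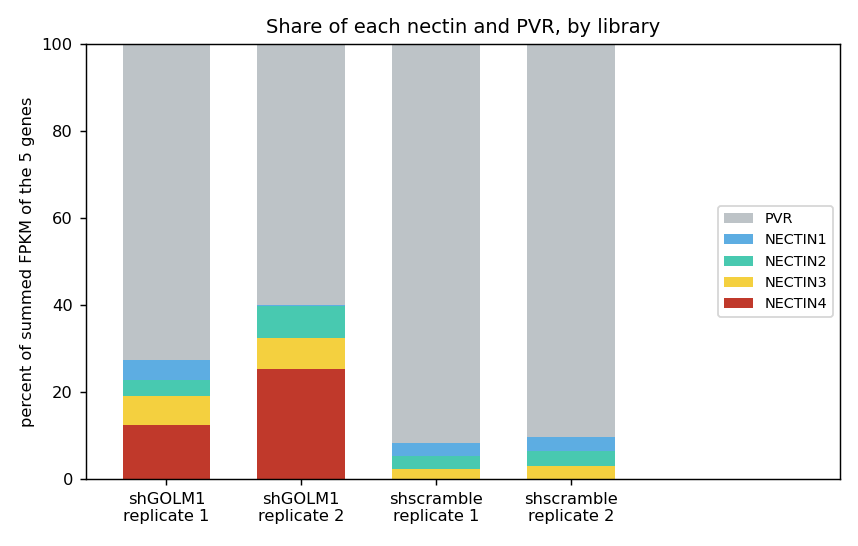
Share of each gene in the summed FPKM of NECTIN1, NECTIN2, NECTIN3, NECTIN4 and PVR, in percent, for each library. NECTIN4 takes 12.5% and 25.4% in the shGOLM1 libraries and under 0.2% in the shscramble libraries, and PVR is the largest share in all 4.

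Of the receptors, CD226 was abundant, CD96 was present at a low level and TIGIT was not detected. CD226 (ENSG00000150637, chromosome 18, 69831158 to 69961803, minus strand), the activating receptor, had 15877 and 3468 counts in shGOLM1, against 5879 and 6814 counts in shscramble. These were 457 and 152 CPM in shGOLM1, against 180.1 and 205 CPM in shscramble. Replicate 1 of shGOLM1 was the highest library and replicate 2 the lowest, so the groups overlapped. The log2 fold change was 0.66 (SE 0.59, adjusted p = 0.652 in edgeR). Taken alone, replicate 1 had 1.23 (adjusted p = 1.72e-08 in edgeR) and replicate 2 had -0.39 (adjusted p = 0.00762 in edgeR). Per length CD226 was at 32.6 and 10.8 FPKM in shGOLM1 and at 13.1 and 14.9 FPKM in shscramble, above PVR in shGOLM1 replicate 1 and below it in the other libraries.

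CD96 (ENSG00000153283, chromosome 3, 111292719 to 111665750, plus strand), a receptor of T and NK cells that binds PVR, had 414 and 429 counts in shGOLM1, against 250 and 177 counts in shscramble. Its mean was 15.4 ± 4.87 CPM in shGOLM1 and 6.49 ± 1.65 CPM in shscramble (SD, n = 2 each), and both shGOLM1 libraries were higher. The log2 fold change was 1.24 (SE 0.46), which did not pass (adjusted p = 0.422 in edgeR and 0.363 in DESeq2). Taken alone, replicate 1 had 0.86 (adjusted p = 0.00275 in edgeR) and replicate 2 had 1.49 (adjusted p = 1.25e-05 in edgeR). CD96 is the neighbour of NECTIN3, 17156 bases further along chromosome 3 when measured between GENCODE gene bodies. The RefSeq start of CD96 used above lies further on, after position 111542196. NECTIN3 also lay higher in both shGOLM1 libraries, as did NECTIN2 on chromosome 19. Any part of location in this was not tested. ZBED2, a zinc finger gene that lies within CD96 on the other strand and shares no exon base with it, lay lower, at 183 and 159 CPM in shGOLM1 against 263 and 251 CPM in shscramble (log2 fold change -0.59, unadjusted p = 0.0983 in edgeR's quasi-likelihood test). TIGIT (ENSG00000181847, chromosome 3, 114276913 to 114310288) had 0 counts in all 4 libraries, which allows up to 3 counts in each.

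The wider pathway was described with 4 lists. Of 7 nectin-like ligands and further receptors, 6 were in the table and 1 could be tested. It was CADM1, a nectin-like adhesion molecule and ligand of CRTAM, with 11.7 and 0.965 CPM in shGOLM1 against 2.48 and 2.61 CPM in shscramble, with the shGOLM1 libraries on both sides of shscramble as for NECTIN1. CRTAM and CADM3 had 0 counts throughout, and PVRIG, an inhibitory receptor for NECTIN2, had at most 4 counts in a library. Of 13 cytoplasmic and junction partners, 10 were tested, 0 passed edgeR, and DESeq2 called 2 higher and 0 lower, where it called 3.1% of all genes higher and 0.238% lower. CTNND1, which encodes the junction protein p120 catenin, was at 13.2 and 33.9 CPM in shGOLM1 against 3.25 and 3.88 CPM in shscramble, with a log2 fold change of 2.72 (SE 0.61, adjusted p = 0.42 in edgeR and 0.00346 in DESeq2). PTPRM, a receptor tyrosine phosphatase of cell contacts, was at 13.8 and 49.7 CPM in shGOLM1 against 6.34 and 7.06 CPM in shscramble (adjusted p = 0.42 in edgeR and 0.0413 in DESeq2). PLEKHA7, a junction protein that binds p120 catenin, was at 16.1 and 5.92 CPM in shGOLM1 against 30.5 and 33.2 CPM in shscramble (adjusted p = 0.423 in edgeR). CTNNA1, alpha-catenin, was at 399 and 983 CPM in shGOLM1 against 402 and 405 CPM in shscramble. AFDN, the afadin gene, was at 116 and 115 CPM in shGOLM1 against 93.1 and 105 CPM in shscramble (log2 fold change 0.23, unadjusted p = 0.445 in edgeR's quasi-likelihood test). The median log2 fold change of the 10 was 0.19, against 0.05 over all tested genes, with 3 higher and 2 lower without overlap, where 25.2% of all genes were higher and 26.5% lower.

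Of 15 genes of signalling below CD226, TIGIT and CD96, 11 were tested, 0 passed edgeR and DESeq2 called 1 higher, where it called 3.1% of all genes higher. ITGAL, the alpha chain of the integrin LFA-1 with which CD226 associates, was at 7.03 and 6.05 CPM in shGOLM1 against 0.368 and 0.481 CPM in shscramble. Its log2 fold change was 3.93 (SE 0.54, adjusted p = 0.42 in edgeR and 4.2e-05 in DESeq2). The beta chain ITGB2 had almost no reads, at 0.317 and 0 CPM in shGOLM1 against 0.0919 and 0.0902 CPM in shscramble. PLCG2, a phospholipase that carries signals from such receptors, was at 48.2 and 42.1 CPM in shGOLM1 against 19.4 and 22.5 CPM in shscramble (adjusted p = 0.42 in edgeR and 0.361 in DESeq2). PRKCQ, a T cell protein kinase C, was at 15.2 and 6.54 CPM in shGOLM1 against 20.9 and 19.6 CPM in shscramble. PTPN6, the phosphatase SHP-1, was at 12.6 and 13.3 CPM in shGOLM1 against 20.4 and 17.1 CPM in shscramble. The kinases FYN and LCK were at 0.395 CPM or below in every library. The median log2 fold change of the 11 was -0.01, with 4 higher and 4 lower without overlap, where 25.2% of all genes were higher and 26.5% lower.

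All 8 proteases and modifying enzymes of nectins were tested and 0 passed edgeR or DESeq2, with a median log2 fold change of 0.20. NCSTN, a gamma-secretase subunit, was at 84.8 and 115 CPM in shGOLM1 against 69.9 and 75.1 CPM in shscramble. For NCSTN the shGOLM1 libraries were both higher, and for APH1A, another subunit, they were both lower, at 177 and 104 CPM in shGOLM1 against 209 and 187 CPM in shscramble. PSEN2 was at 41.2 and 12.4 CPM in shGOLM1 against 37.6 and 32.7 CPM in shscramble.

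Markers of other cell types that carry nectins or their receptors were read beside these values. Of 8 epithelial markers 3 were at 0 in every library (KRT5, KRT14 and KRT19), EPCAM was at 0.0288 and 0 CPM in shGOLM1 and at 0 in shscramble, and CDH1 was at 0 in shGOLM1 and at 0 and 0.0301 CPM in shscramble. The summed level of the epithelial list was 14.1 and 5.88 CPM in shGOLM1 and 6.55 and 5.95 CPM in shscramble, with TP63 the largest member in every library at 13.5 and 2.72 CPM in shGOLM1 and at 6.16 and 5.35 CPM in shscramble. KRT8 was at 0.374 and 2.37 CPM in shGOLM1 and at 0.306 and 0.361 CPM in shscramble. Of 4 NK cell markers KLRD1 and KLRF1 were at 0 in every library, NCR1 had at most 0.0288 CPM, and NCAM1 was at 1.30 and 0.570 CPM in shGOLM1 and at 0 in shscramble. The T cell receptor gene CD3G and the coreceptor gene CD8A were at 0 in every library. Of the other T cell receptor genes, CD3E was at 0 in shGOLM1 and at 0.0306 and 0 CPM in shscramble. CD3D was at 0.547 and 6.23 CPM in shGOLM1 and at 1.84 and 1.35 CPM in shscramble. CD247, the zeta chain of that receptor, was expressed in every library, at 35.02 and 87.5 CPM in shGOLM1 and at 29.4 and 24.8 CPM in shscramble. The coreceptor gene CD4 was at 307 and 379 CPM in shGOLM1 and at 182 and 179.8 CPM in shscramble. The B cell list summed to 0.317 and 0.658 CPM in shGOLM1 and 0.245 and 0.180 CPM in shscramble. In the myeloid list CSF1R was at 309 and 231 CPM in shGOLM1 and 235 and 242 CPM in shscramble, while CD14, LYZ and CD68 were each below 0.7 CPM.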

How the data were processed

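RNA-seq of 4 SUP-M2 libraries was analysed from 1 table. The deposited values used are whole numbers per gene that the file headers call counts. That they are raw and not normalized was assumed. The authors' FPKM values, their mean signal per group, their log2 fold change and their p-value columns stand in the same table; of these FPKM and the log2 fold change are printed. For the aligner, counter and strand setting, nothing is given in the sources used here. Mouse builds stand in the submitters' processing notes, which name GRCm38 and mm10, but all 58735 gene identifiers and coordinates equal GENCODE 29 on GRCh38, and 27 symbols were restored from it.

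Genes were tested by quasi-likelihood in edgeR (edgeR 4.0.16, R 4.3.3, two-sided) with TMM, filterByExpr and Benjamini-Hochberg adjustment over 14166 genes at 0.05. The fit was run on simulated counts at the spread of the 4 libraries and at a spread set for the shscramble pair. Recovery of changed genes was required only at the latter spread. That check therefore does not show what the test can find at the spread of the shGOLM1 libraries. Alternatives were other scalings and filters, DESeq2 1.42.0, limma-voom (limma 3.58.1), a replicate block and each library left out. Log2 CPM used a prior count of 2. Promoters are RefSeq's, counted over 250 bases. Members and lists were chosen with earlier results of these data known. Named list genes were up to 4 per list with the smallest p and at least 1 CPM; AFDN, ITGB2, FYN, LCK, PVRIG and the genes at 0 were named after their values were seen, and not every gene this rule takes is reported here. Between the shscramble libraries the chi-square per gene was 15.1, beyond sampling noise, and both count as samples. Limits for a count of 0 cover counting error only. Figures were drawn with matplotlib 3.10.9.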

Additional observations from a re-analysis of the deposited data

How the results depend on the processing

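With 2 libraries a group and shGOLM1 libraries that differ widely, counts of calls depend on the setting. Against 0 genes in the planned edgeR fit, 192 were called without a filter on low counts and 533 in DESeq2, and leaving out a library gave 20 to 10290 (22 and 20 without shscramble replicate 1 and 2, 10290 and 6721 without shGOLM1 replicate 1 and 2). With a shGOLM1 library left out, a fit takes its spread from the shscramble pair alone. With a shscramble library left out, it takes its spread from the shGOLM1 pair alone. The fits also differ in the number of libraries or of genes tested, and why their counts of calls differ was not tested. Members other than NECTIN4 went from 0 called to between 0 and 6 when a library was left out (6 of 6 without shGOLM1 replicate 1, where 67.4% of all genes were called, and 4 of 6 without shGOLM1 replicate 2, where 44.5% were), and stayed at 0 under every other alternative. Of the genes on the pathway lists, 2 of 39 tested were called without a filter (0.759% of all genes), 3 of 33 in DESeq2 (3.33%), and 0 to 25 with a library left out, namely 25 of 32 and 16 of 32 without shGOLM1 replicate 1 and 2, in the same fits as above. With the replicate number as a block edgeR called 203 genes (1.43%), 1 of them on the lists (ITGAL, of 30 tested). The labels do not say that numbers pair samples, and deviations of same-numbered libraries correlated at -0.0977 across genes. NECTIN1 changed sign without a filter (-0.015), in limma-voom (-1.11) and with the block (-1.19), and ran from -3.61 to 0.96 with a library left out. PVR ran from -0.90 to 0.081 and CD226 from -0.39 to 1.23 in the same way, the sign turning with the shGOLM1 library left out. NECTIN2, NECTIN3 and CD96 were higher under every alternative run, with log2 fold changes of 0.62 to 0.88, 1.19 to 1.77 and 0.86 to 1.49. NECTIN4, selected for being higher, ran from 6.86 to 7.80, which is a description.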

Other observations

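The genes beside the other expressed ligands were also read. TOMM40, a mitochondrial import gene 1341 bases beyond NECTIN2, was at 104 and 23.8 CPM in shGOLM1 against 202 and 187 CPM in shscramble, while NECTIN2 lay higher in both shGOLM1 libraries. BCL3, an NF-kB cofactor gene on chromosome 19 that lies between PVR and NECTIN2, was at 140.1 and 376 CPM in shGOLM1 against 166 and 155 CPM in shscramble, a different order of libraries from that of either ligand. USP2, a neighbour of NECTIN1 at 241682 bases, was at 8.90 and 4.30 CPM in shGOLM1 against 4.78 and 4.84 CPM in shscramble. Its shGOLM1 libraries thus lay on both sides of shscramble, in the same order as for NECTIN1. They differed 2.07-fold, against 23.2-fold for NECTIN1. OAF, further off on the other side at 481683 bases, was at 3.05 and 1.93 CPM in shGOLM1 against 3.89 and 3.82 CPM in shscramble, lower in both.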
